A study of Mus musculus with 6 samples.

Results

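The genes described here are 10 members of the JAK-STAT pathway and of its feedback: the transcription factors Stat3, Stat4, Stat5a, Stat5b and Stat6, the kinase Jak3, and the inhibitors Socs1, Socs2, Socs3 and Cish. They were picked by symbol from 47643 annotated genes listed for each library, and all 10 were among the 12113 genes tested, those averaging 1 FPKM or more (fragments per kilobase of transcript, normalized for library size). RNA sequencing was done on induced regulatory T cells (iTreg) of C57BL/6 mice. Spleen CD4+ T cells were given antibodies to CD3 and CD28 together with TGF-β for 2 days, then vehicle (DMSO) or 100 nM prostaglandin E2 (PGE2) for 6 h, and cells positive for the reporter were sorted. All libraries, 3 with vehicle and 3 with PGE2, carry the Foxp3-DTR/EGFP allele, which puts a diphtheria toxin receptor and a green reporter under control of Foxp3, so both groups are cells made in culture and selected on Foxp3 expression. Nothing in the labels tells whether replicates are different animals or cultures, and p-values therefore reflect only how these samples vary.

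Cytokine receptors without a kinase of their own signal through Janus kinases (JAKs), which phosphorylate STAT proteins; these pair up, enter the nucleus and bind DNA. In T cells, STAT5A and STAT5B carry the IL-2 signal that sustains Foxp3, STAT3 answers IL-6, IL-10 and IL-21, STAT4 answers IL-12 and STAT6 answers IL-4. CISH and the SOCS proteins are transcribed in response to STATs and then block the receptor or the kinase, which closes a feedback loop. JAK3 is the kinase bound to the common gamma chain of the IL-2 receptor family.

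The sorted cells expressed the genes of their label. Foxp3 was at 75.4 to 101 FPKM with vehicle and 91.1 to 136 with PGE2, and 8 markers of CD4+ regulatory T cells summed to 1477 to 1562 FPKM with vehicle and 1629 to 1711 with PGE2. The 2 CD8 T cell markers summed to 5.28 to 5.6 and 5.92 to 6.64 FPKM, the 4 B cell markers to 3.83 to 5.7 and 3.55 to 4.33, the 6 myeloid markers to 1.86 to 5.34 and 2.76 to 4.33, the 4 NK markers to 0.671 to 2.86 and 2.33 to 4.57, and the 3 erythroid markers to 0.735 to 0.96 and 0.625 to 1.25. The NK genes Ncr1 and Klrb1c were listed at 0 in all 6 libraries. The CD4 regulatory and CD8 sums did not overlap between groups, both higher with PGE2, and their part in the results was not tested. Of the regulatory T cell markers, Ctla4, which encodes an inhibitory receptor, was at 205, 201 and 191 FPKM with vehicle and 339, 351 and 346 with PGE2. It had by far the largest difference, so the higher regulatory sum rests largely on this gene. Foxp3, Cd4, Cd3g, Ikzf2, Ikzf4 and Il2ra overlapped between groups. Il2ra, the most abundant marker, had a lower mean with PGE2 (691 FPKM with vehicle and 640 with PGE2). Depth, taken as coverage per unit of FPKM, was lowest in replicate 3 of each group. In bulk RNA, fewer cells of a type and less RNA per cell cannot be told apart.

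Promoter sequences are shown for 3 members on which the results turn: Stat3 and Stat4, whose transcripts were higher with PGE2, and Cish, the STAT5 target whose level differed least from vehicle among the inhibitors. Each is 300 bases long, 250 before and 50 after the RefSeq start on GRCm38.p6, in the direction of the gene. Capitals mark the STAT motif TTCNNNGAA and the short CREB site TGACG, each on both strands; the short site is also part of the full site TGACGTCA. The windows lie at chr11:100939491-100939790 (minus strand) for Stat3, chr1:51986898-51987197 (plus strand) for Stat4 and chr9:107296409-107296708 (plus strand) for Cish.
Stat3: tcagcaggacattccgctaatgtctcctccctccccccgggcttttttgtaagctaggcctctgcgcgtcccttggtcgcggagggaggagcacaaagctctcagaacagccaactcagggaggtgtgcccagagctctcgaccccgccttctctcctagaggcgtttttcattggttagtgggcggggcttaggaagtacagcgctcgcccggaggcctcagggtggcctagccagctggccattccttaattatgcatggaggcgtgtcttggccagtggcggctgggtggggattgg
Stat4: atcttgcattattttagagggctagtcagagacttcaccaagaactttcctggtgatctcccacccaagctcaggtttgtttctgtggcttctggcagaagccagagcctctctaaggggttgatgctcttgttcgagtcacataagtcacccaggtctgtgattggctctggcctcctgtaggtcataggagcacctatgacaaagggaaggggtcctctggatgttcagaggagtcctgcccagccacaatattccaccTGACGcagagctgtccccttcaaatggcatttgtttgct
Cish: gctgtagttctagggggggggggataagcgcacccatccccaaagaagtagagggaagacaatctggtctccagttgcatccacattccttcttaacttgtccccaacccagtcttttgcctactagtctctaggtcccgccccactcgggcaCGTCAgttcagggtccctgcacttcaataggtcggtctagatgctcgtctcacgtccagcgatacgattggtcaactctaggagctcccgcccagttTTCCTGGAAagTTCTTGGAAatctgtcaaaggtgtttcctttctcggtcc

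RefSeq windows were at hand for 9 of the 10 members, 12 windows in all; Socs2 had none. The STAT motif was in the windows of Cish, with TTCCTGGAA and TTCTTGGAA at bases 251 and 262, and of Socs3, with TTCTTAGAA at base 97. It was in 8.3% of all 32851 windows of this length. The short site TGACG was in 4 of the 12 windows, 1 each of Stat4, Cish, Stat5a and Stat6, and in 20.8% of all windows. Stat4 and Stat5a each have another window, with neither the STAT motif nor the short site. Of the Stat4 windows, the window with the short site is shown above. The full site TGACGTCA, found in 1.79% of all windows, was in none of the 12. The Stat3 window held none of these letters. A match describes the sequence and is not evidence of binding.

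With vehicle, Cish was the most abundant of the 10 at 230 ± 29.8 FPKM (SD, n = 3), followed by Socs2 at 146 ± 13.7, Socs1 at 99.3 ± 14.8, Jak3 at 68.8 ± 8.73, Stat3 at 59.6 ± 2.83, Stat6 at 50.2 ± 1.82, Stat5b at 40.6 ± 3.18, Socs3 at 32.7 ± 2.88, Stat5a at 23 ± 1.81 and Stat4 at 9.54 ± 0.477. In this order the libraries of neighbours overlapped only for Jak3 and Stat3. The receptor-feedback genes Cish, Socs2 and Socs1 thus stood above every STAT on the FPKM scale. With PGE2 the order in FPKM differed at 3 places. Socs1 at 127 ± 21.8 FPKM and Socs2 at 110 ± 2.49 overlapped and exchanged ranks. Stat3 at 81.7 ± 6.32 stood above Jak3 at 68.9 ± 6.34 without overlap on this scale. Stat4 at 22.3 ± 11 overlapped with Stat5a at 20.1 ± 1. Overlap was also seen between Stat6 and Stat5b, Stat5b and Socs3, and Socs3 and Stat4, neighbours in the order with PGE2.

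**Figure D1:**
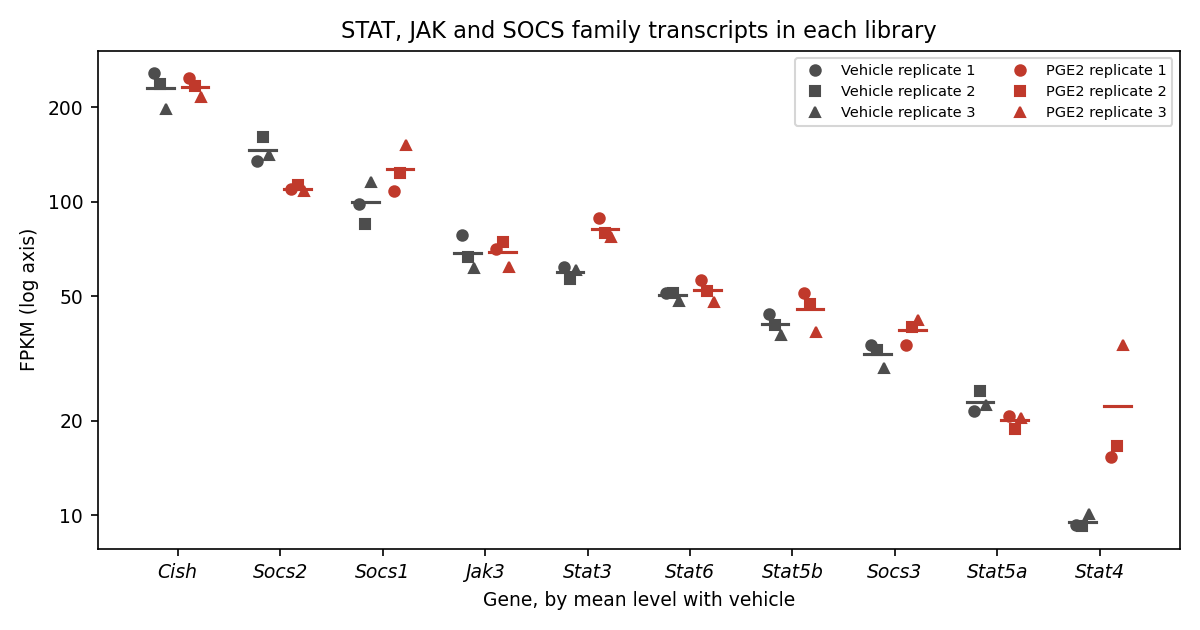
FPKM of the 10 genes in each of the 6 libraries, on a log axis, ordered by the mean with vehicle (grey, vehicle; red, PGE2; marker shape, replicate number; horizontal line, mean of 3 libraries). Cish, at 230 and 232 FPKM, tops both groups, and the Stat4 value of PGE2 replicate 3, 35 FPKM, lies apart from the 15.3 and 16.6 FPKM of the other two.

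The tables give a second reading of each gene, its mean read depth (coverage). Divided by each library's ratio of coverage to FPKM, it is called scaled coverage here and equals FPKM for most genes with a single transcript. The FPKM of Socs1 equalled its scaled coverage (ratio 1 in all 6 libraries), whereas that of Stat3 was 2.08 to 2.22 times, that of Cish 2.11 to 2.21 times and that of Socs2 8.45 to 9.31 times its scaled coverage. GENCODE M21 annotates 14 transcripts each for Stat3 and Socs2, the shortest of 349 and 352 bases and the longest of 6042 and 4242 bases. On the scaled coverage scale Socs2 was therefore not the second but the eighth member with vehicle, at 16.5 ± 0.728 (n = 3), next to Stat5a at 16 ± 0.563 and overlapping with it. Cish, at 108 ± 13.4, and Socs1, at 99.2 ± 14.8, stayed on top. Stat3 lay below Jak3 in both groups on this scale, at 27.5 against 55.8 with vehicle and 38.2 against 56.3 with PGE2. The rank of Socs2 among the inhibitors and the order of Stat3 and Jak3 with PGE2 are thus not settled by these tables. The change of Socs2 with PGE2 was nearly the same on both scales.

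With all 6 libraries and no covariate, 0 of the 10 members passed the limma test on log2(FPKM + 1) at an adjusted p of 0.05, where 0.809% of all tested genes did, and 3 members had an unadjusted p under 0.05, as did 13% of all tested genes. Libraries with the same replicate number varied together, replicate 3 standing apart from 1 and 2 in both groups more than 1 and 2 did from each other, and a second fit took that number as a block. In it Stat3 and Stat4 rose and 0 members fell, against 1.77% and 1.49% of all tested genes. In scaled coverage Stat4 rose and no other member passed, against 0.925% of tested genes higher and 0.388% lower; with the block Stat3 and Stat4 rose and Socs2 fell, against 2.7% and 2.56%. By either reading, vehicle and PGE2 libraries did not overlap for 5 of the 10 members: Stat3, Stat4 and Socs3 were higher with PGE2, and Stat5a and Socs2 lower. Of all tested genes, 7.81% in FPKM were higher without overlap and 11.9% lower; in scaled coverage these shares were 8.11% and 12.7%. The median log2 change of the 10 members was 0.1, and that of all tested genes -0.03.

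**Figure D2:**
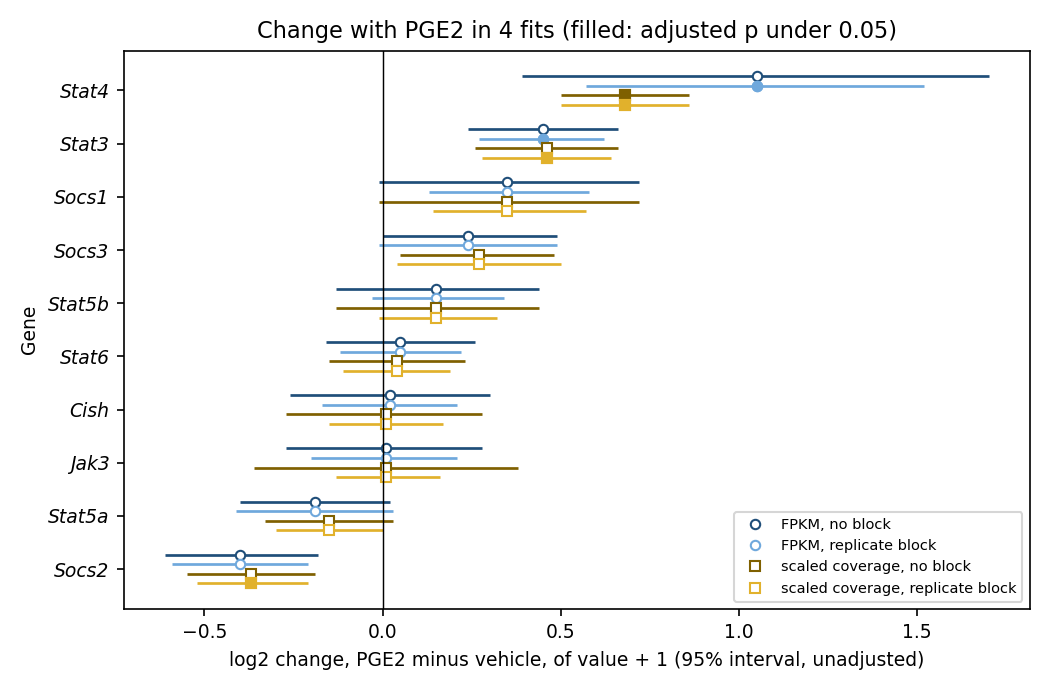
Log2 change with PGE2 of each gene in 4 fits, with 95% intervals that are not adjusted for the number of genes (blue circles, FPKM; brown and yellow squares, scaled coverage; lighter shade, with the replicate block; filled, adjusted p under 0.05). Filled marks appear only for Stat4, Stat3 and Socs2; Cish and Jak3 lie at 0.02 and 0.01 in FPKM, and the interval of Stat4 in FPKM, 0.39 to 1.7, is the widest.

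Stat3 (ENSMUSG00000004040.16, chromosome 11 from 100885098 to 100939540, minus strand), the factor of IL-6 and IL-10 signalling, was at 62, 56.5 and 60.3 FPKM with vehicle and at 88.9, 79.4 and 76.9 FPKM with PGE2, here and below in the order of replicates 1, 2 and 3. Every PGE2 library was above every vehicle library, and each was higher than the vehicle library of its number. The fold change on the log2(FPKM + 1) scale was 1.36 (log2 change 0.45, SE 0.09, 95% interval 0.24 to 0.66). It missed the threshold without the block (adjusted p = 0.079 with limma) and passed with it (adjusted p = 0.034). Scaled coverage was 28.3, 25.5 and 28.7 with vehicle and 40.9, 38.2 and 35.6 with PGE2, a log2 change of 0.46 (SE 0.08; adjusted p = 0.056 with limma, and 0.027 with the block).

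Stat4 (ENSMUSG00000062939.11, chromosome 1 from 51987148 to 52107189, plus strand), the factor of IL-12 signalling, was at 9.29, 9.24 and 10.1 FPKM with vehicle and at 15.3, 16.6 and 35 with PGE2. All PGE2 libraries were higher, and the value of PGE2 replicate 3 was far above the other two. Its scaled coverage was 8.85, 8.97 and 9.81 with vehicle and 14.8, 16.1 and 15.2 with PGE2, so that PGE2 replicate 3 lay between the other two by this reading. The log2 change was 1.05 in FPKM (SE 0.28, adjusted p = 0.16 with limma, 0.048 with the block) and 0.68 in scaled coverage (SE 0.08, 95% interval 0.5 to 0.86, 1.6-fold; adjusted p = 0.015 with limma, 0.0095 with the block). Without PGE2 replicate 3 the FPKM change was also 0.68 (adjusted p = 0.06 with limma). The call in scaled coverage held without vehicle replicate 3 (adjusted p = 0.02 with limma) and was lost when vehicle replicate 1 or 2 or any PGE2 replicate was left out, with adjusted p between 0.051 and 0.12 and a log2 change of 0.65 to 0.72 in all 6 such fits.

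In Stat4 the ratio of FPKM to scaled coverage was 1.03 to 1.05 in 5 libraries and 2.31 in PGE2 replicate 3. The highest ratio was thus 2.25 times the lowest, a spread reached by 2.14% of 12112 tested genes with a ratio in every library, whose median was 1.02. An annotated non-coding transcript on the same strand, Gm28177, overlaps the 3' part of Stat4 and shares 1033 of the 3872 exon bases of Stat4, so reads in that part can belong to either. Gm28177 was at 120, 125 and 138 FPKM with vehicle and 145, 155 and 147 with PGE2. Its log2 change was 0.23 (SE 0.09, adjusted p = 0.34 with limma). The mean of Gm28177 was 128 FPKM with vehicle and 149 with PGE2. That of Stat4 in scaled coverage was 9.21 and 15.4. The part of shared reads in the Stat4 values was not tested.

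**Figure D3:**
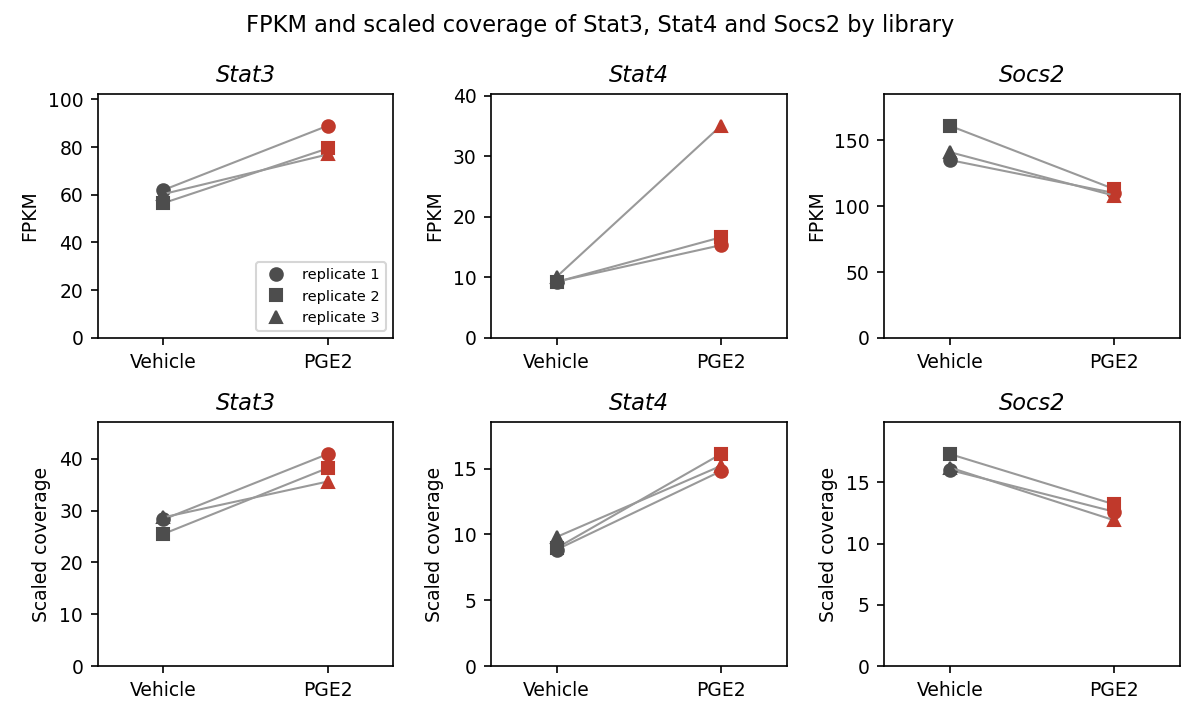
FPKM (upper row) and scaled coverage (lower row) of Stat3, Stat4 and Socs2 in the vehicle and PGE2 libraries, all axes from 0; marker shape gives the replicate number and grey lines join libraries of the same number. All lines rise for Stat3 and Stat4 and all fall for Socs2; Stat4 of PGE2 replicate 3 is at 35 in FPKM and at 15.2 in scaled coverage.

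Stat3, Stat5a and Stat5b are neighbours on chromosome 11, with Stat5b (ENSMUSG00000020919.11) from 100780731 to 100850724 and Stat5a (ENSMUSG00000004043.14) from 100859351 to 100885169. Stat5a was at 21.5, 25 and 22.5 FPKM with vehicle and at 20.8, 18.9 and 20.5 with PGE2. Its groups did not overlap, with the PGE2 libraries the lower, yet the change was not called (log2 change -0.19, SE 0.09, 95% interval -0.4 to 0.02, adjusted p = 0.44 with limma). Stat5b, the more abundant of the pair, was at 43.9, 40.3 and 37.6 FPKM with vehicle and at 51, 47.1 and 38.5 with PGE2 (log2 change 0.15, SE 0.12, 95% interval -0.13 to 0.44; adjusted p = 0.67). Its groups overlapped, and replicate 3 was the lowest in each.

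Ratios within this cluster of genes were set side by side in each library. The ratio of Stat3 to Stat5a in FPKM was 2.88, 2.26 and 2.68 with vehicle and 4.27, 4.19 and 3.76 with PGE2. In scaled coverage it was 1.7, 1.6 and 1.85 with vehicle and 2.69, 2.66 and 2.62 with PGE2, so that by either reading the groups did not overlap. The ratio of Stat5b to Stat5a in scaled coverage was 2.42, 2.33 and 2.21 with vehicle and 3.11, 3 and 2.6 with PGE2, without overlap, whereas in FPKM the groups overlapped, at 1.61 to 2.04 and 1.88 to 2.49. These ratios were chosen after their values were seen and have no test. Stat3 and Stat5a share 72 exon bases at their 3' ends on opposite strands, and the sources do not state whether strand was used in counting. The assembled locus that matches Stat5a gave 43.3, 39.6 and 43.7 FPKM with vehicle and 35.3, 37.9 and 36.3 with PGE2, a higher level than under the annotated gene with the same order of the groups.

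Stat6 (ENSMUSG00000002147.18, chromosome 10 from 127642986 to 127660957), the factor of IL-4 signalling, was at 51.3, 51.1 and 48.1 FPKM with vehicle and at 56.4, 51.9 and 47.9 with PGE2. The groups overlapped, and the log2 change of 0.05 had a 95% interval of -0.16 to 0.26 (adjusted p = 0.89 with limma). Jak3 (ENSMUSG00000031805.17, chromosome 8 from 71676296 to 71690575) was at 78.5, 66.4 and 61.5 FPKM with vehicle and 70.7, 74.1 and 61.8 with PGE2, with a log2 change of 0.01 and an interval of -0.27 to 0.28 (adjusted p = 0.99). Insl3, on the same strand, shares 404 exon bases with Jak3, and stood at 19.6 to 37.3 FPKM with vehicle and 28.9 to 40.1 with PGE2, so the division of reads between them is uncertain.

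Among the inhibitors, Socs2 (ENSMUSG00000020027.18, chromosome 10 from 95385362 to 95417180), a suppressor of growth hormone and cytokine receptors, was lower with PGE2. It was at 135, 161 and 141 FPKM with vehicle and at 110, 113 and 108 with PGE2. The groups did not overlap, and the PGE2 libraries lay close together. The log2 change was -0.4 in FPKM (SE 0.09, 0.76-fold; adjusted p = 0.12 with limma, 0.054 with the block) and -0.37 in scaled coverage (SE 0.08; adjusted p = 0.076, and 0.033 with the block). Scaled coverage was 16, 17.3 and 16.2 with vehicle and 12.6, 13.2 and 11.9 with PGE2.

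Socs1 (ENSMUSG00000038037.4, chromosome 16 from 10783808 to 10785536), which inhibits JAKs downstream of interferon and IL-2 receptors, was at 97.9, 85.1 and 115 FPKM with vehicle and 108, 123 and 151 with PGE2. Each PGE2 library was above the vehicle library of its number, but the groups overlapped (log2 change 0.35, SE 0.15, 95% interval -0.01 to 0.72; adjusted p = 0.39 with limma, 0.11 with the block). Socs3 (ENSMUSG00000053113.3, chromosome 11 from 117966079 to 117970047), the STAT3 target that blocks gp130 receptors, was at 34.9, 33.7 and 29.5 FPKM with vehicle and 35, 39.9 and 41.8 with PGE2. Its groups only just failed to overlap, and the log2 change of 0.24 (SE 0.1) was not called (adjusted p = 0.38 with limma, 0.27 with the block).

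Cish (ENSMUSG00000032578.7, chromosome 9 from 107296026 to 107302784), the inhibitor transcribed in response to STAT5, was at 256, 237 and 197 FPKM with vehicle and 248, 234 and 215 with PGE2. The PGE2 libraries lay within the range of the vehicle libraries. Its log2 change was 0.02 (SE 0.12, 95% interval -0.26 to 0.3; adjusted p = 0.97 with limma). This was the smallest change of the 4 inhibitors. The ratio of Cish to Socs2 in FPKM was 1.9, 1.47 and 1.4 with vehicle and 2.25, 2.07 and 1.99 with PGE2, and that of Socs1 to Socs2 was 0.726, 0.528 and 0.811 with vehicle and 0.985, 1.09 and 1.4 with PGE2, both without overlap and without a test.

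The wider pathway was described by lists of genes, some of which share members (Il2ra, Il12rb2, Il4ra and Il6ra each stand in more than 1 place). Of all tested genes 0.57% rose and 0.239% fell. Of 13 other JAK, STAT, SOCS and PIAS genes, 0 were called, with a median log2 change of 0.03. Of 11 phosphatases and adaptors 0 were called (median -0.02); Ptprc, which encodes CD45, was the highest at 197 ± 2.48 and 218 ± 20.8 FPKM. Cblb, a ubiquitin ligase that restrains T cell activation, was at 11.4, 11.6 and 14 FPKM with vehicle and 19.3, 18.8 and 19.2 with PGE2 (adjusted p = 0.051 with limma), and rose with the block (0.024) and in scaled coverage (0.041).

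The cytokine receptor chains that feed these STATs held all 3 genes called in FPKM, without the block, in the lists given here. Of 18 tested chains 3 rose and 0 fell, with a median log2 change of 0.08; 4 rose with the block. Il12rb2, the IL-12 receptor chain that activates STAT4, was at 12, 12.7 and 14.1 FPKM with vehicle and 40.7, 34 and 36.7 with PGE2 (log2 change 1.45, SE 0.1, adjusted p = 0.0021 with limma). Ifngr1, the ligand-binding chain of the interferon-gamma receptor, was at 160, 141 and 134 FPKM with vehicle and 283, 283 and 291 with PGE2 (log2 change 0.98, SE 0.09, adjusted p = 0.0063). Il7r, the IL-7 receptor chain that signals through JAK1 and STAT5, was at 15.5, 16 and 15.7 FPKM with vehicle and 24, 23.9 and 22.3 with PGE2 (log2 change 0.54, SE 0.08, adjusted p = 0.031). Groups were apart for all 3. Il12rb2 passed without each single library, Ifngr1 missed without PGE2 replicate 2 (adjusted p = 0.056 with limma), and Il7r missed in all 6 such fits (0.067 to 0.18). Ifnar1, a chain of the type I interferon receptor, joined them with the block (log2 change 0.58, adjusted p = 0.033 with limma).

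Textbook targets of the STAT members were read in the same way, beside all tested genes, of which 43.3% had a higher mean with PGE2. Of 13 STAT5 targets 0 were called and 6 had a higher mean (median -0.04). Il2ra, the highest, was at 691 ± 59.6 and 640 ± 27.6 FPKM. With the block, Gzmb, which encodes granzyme B, rose (log2 change 0.83, adjusted p = 0.01 with limma) and Pim2, a survival kinase, fell (log2 change -0.44, adjusted p = 0.04). Of 7 tested STAT3 targets 0 were called and 3 had a higher mean (median -0.01); Junb, the highest, was at 178 ± 39.1 and 217 ± 35.5 FPKM, and Hif1a rose with the block (log2 change 0.55, adjusted p = 0.024).

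For STAT4 and STAT6, 1 of 10 tested targets rose, Il12rb2, which is also a receptor chain above. In FPKM all 10 had a higher mean (median 0.22), down to 0.01 for Ifng. Apart from Il12rb2, adjusted p without the block was 0.18 to 0.99 with limma. Furin had a log2 change of 0.07 in FPKM and -0.03 in scaled coverage, where the rest stayed above 0. With the block Il24, a cytokine gene, also rose (log2 change 0.72, adjusted p = 0.018).

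**Figure D4:**
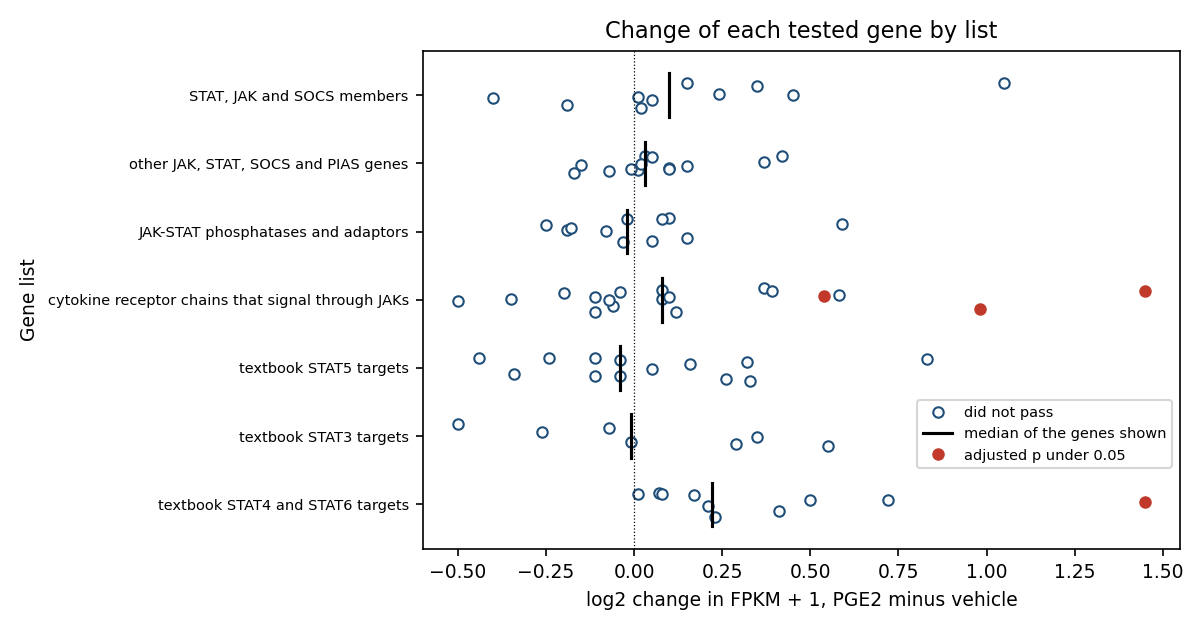
Log2 change in FPKM of every tested gene in each list (open, not passed; filled red, adjusted p under 0.05; black bar, median of the genes shown). The 10 members spread from -0.4 to 1.05 with none filled, and the filled points are Il12rb2, which stands in 2 lists, Ifngr1 and Il7r.

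The member with the smallest p in FPKM was Stat3. The genes whose log2 values followed it most closely over the 6 libraries, among 6057 genes averaging 10 FPKM or more, were Rab43, Pmepa1, Sgk1, Tes and Cmip, with a root mean square difference of 0.047 to 0.051 after centring each gene. Sgk1, a kinase induced by glucocorticoids and serum, was at 78.8, 74.1 and 79.9 FPKM with vehicle and 122, 111 and 106 with PGE2. Pmepa1, a TGF-β-induced inhibitor of SMAD signalling, was at 14.9, 13.7 and 14.4 FPKM with vehicle and 19.8, 19.3 and 18 with PGE2. Like Stat3, both had their lowest vehicle value in replicate 2 and their highest PGE2 value in replicate 1. These genes were chosen for this likeness, and it has no test.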

How the data were processed

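RNA sequencing of 6 libraries, 3 with vehicle and 3 with PGE2, was analysed, with groups and replicate numbers taken from titles. Reads were processed with Trim Galore and HISAT2 on mm10, per the submitters' processing notes; for the versions, the annotation and the quantifier, the sources used here say nothing. Per the file headers, each table gives coverage, FPKM and TPM per gene. FPKM was normalized by the authors for library size and length. Coverage, a signal as deposited, is the mean depth of reads on a gene. The TPM column as deposited was treated as a score, because loci are listed both as assembled loci and under annotated genes, and its total is 1.91 to 1.94 times that of the assembled loci; it served only as an alternative after rescaling to a common sum.

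Entries under an annotated gene were used, and IDs listed more than once were summed. Coverage was divided by each library's median ratio of coverage to FPKM (3.996 to 5.446), which 97.3% to 97.7% of genes with a single GENCODE M21 transcript and over 1 FPKM met within 1%; this is the depth measure, since counts are not at hand and no counting interval was computed. Of the 10 members, 9 have the same ID, version and coordinates in GENCODE M21 (GRCm38); Socs1 has another version there. Log2(FPKM + 1) of genes averaging 1 FPKM or more was compared by limma 3.58.1 in R 4.3.3 with a mean-dependent prior variance, two-sided, no covariate and Benjamini-Hochberg adjustment over 12113 genes, threshold 0.05. The values understate changes of low genes. Alternatives were other pseudocounts, filters, scalings, priors, coverage or TPM, the replicate block, and leaving out each library.

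The replicate numbers come from the titles. Deviations from the group means correlated over 12113 genes at 0.23, 0.31 and 0.53 for vehicle and PGE2 libraries of the same number, each over 0.1, so the numbers were taken to pair the samples. Replicates 1 and 2 were not told apart in this way: vehicle replicate 2 correlated with PGE2 replicate 1 at 0.27 and vehicle replicate 1 with PGE2 replicate 2 at 0.15, while pairs of replicate 3 with another number were at -0.43 to -0.29.

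Promoters came from a RefSeq table on GRCm38.p6. Genes named are all 10 members, the called genes of each list with the smallest p (up to 4) or else its most abundant gene, the 5 genes most like the member with the smallest p, and markers of the sorted cell; genes that overlap a member, or passed only with the block or in coverage, were named after their values were seen. The results of 1 planned list and of 1 gene that this rule names are not reported here. The members and lists were chosen with earlier results of these data known. Assembled loci were used where they overlapped a member by 80% of both spans. Plots were made in Python 3.11.15 with matplotlib 3.10.9.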

Additional observations from a re-analysis of the deposited data

How the results depend on the processing

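The number of members called, 0 in FPKM, was 1 in read coverage (Stat4), 2 with the replicate block (Stat3 and Stat4) and 3 in read coverage with the replicate block (Stat3, Stat4 and Socs2), the last of these chosen after seeing the data, as were the coverage fits that leave out a library. It was 0 in FPKM whichever single library was left out. The block changed no other call of a member. Over all tested genes, 98 calls became 395 with the block, 159 in coverage, 63 in TPM and 45 without a filter on low values, and 22 to 69 without single libraries. The log2 changes of Stat3, Stat4, Socs1, Socs3 and Stat5b stayed above 0 and those of Socs2 and Stat5a below 0 in all alternatives run. Those of Jak3, Cish and Stat6 changed sign. Jak3 was at -0.04 in TPM, at -0.07 to 0.1 without single libraries, including -0.02 and -0.05, and at -0.12 to 0.14 in coverage without single libraries, including -0.07 and -0.03. Cish was at -0.02 in TPM, at -0.09 to 0.1 without single libraries, including -0.03, and at -0.09 to 0.08 in coverage without single libraries, including -0.04 and -0.01. Stat6 was at -0.01 to 0.11 without single libraries and at -0.01 to 0.09 in coverage without single libraries, the lowest without PGE2 replicate 1. The causes were not tested. Depth cannot be given as counts, so no limit from counting error is stated.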
